A study of Mus musculus with 34 samples.

Results

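The complement and coagulation factors are plasma proteins that the liver makes and secretes, and their transcripts were followed here in livers of mice with an intact or a deleted gene for PPARα, the nuclear receptor that fenofibrate activates. The set held 33 genes, chosen by name from both cascades, and every gene was found on the array through the gene symbol that the scanner files give its probes. They are 33 of the 15976 genes tested. RNA from 34 livers was labelled with a single dye and hybridised to Agilent arrays, 1 male C57Bl/6J mouse to an array, at 14 weeks of age. All mice ate the same chow and were gavaged daily for 10 days with fenofibrate at 100 mg per kg per day or with its vehicle, a solution of 3% gum arabic, and were killed at zeitgeber time 14. WT mice are wild type (4 on vehicle, 4 on fenofibrate), KO mice lack Ppara in the whole body (3 and 5), LKO mice lack it in the liver (4 and 5), and LWT mice are the wild-type controls of the LKO line (4 and 5). The labels name neither the Cre driver of the LKO line nor the deleted part of the gene.

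Complement is a chain of serine proteases that marks microbes for uptake and ends in a pore, the membrane attack complex, while coagulation is a parallel chain of proteases that ends in fibrin, the mesh of a clot. Hepatocytes make most of the circulating factors of both. Several of them, fibrinogen and C3 among them, belong to the acute phase response, in which interleukin-6 and related signals raise their transcription through STAT3 and C/EBP factors. HNF1, HNF4 and FOXA factors maintain their expression in the adult liver.

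A level is the log2 of a probe's processed signal minus the 75th percentile of its array, from the brightest probe of each gene. Levels of different genes come from different probes and are not compared with each other. All 33 genes were above background on all 34 arrays, so none was selected by being high in a particular group. A change is a difference of group means with its standard error (SE) from limma fitted to all 8 groups. A gene is said to have risen or fallen where the p-value, adjusted by Benjamini and Hochberg over all 15976 genes, was under 0.05, and every adjusted p below is of this kind. In liver tissue, fewer hepatocytes and less transcript per hepatocyte cannot be told apart.

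The arrays of a group correlated with each other at 0.979 to 0.995. The Ppara probe read 6.86 to 7.28 in WT and 6.70 to 7.25 in LWT on vehicle, against 6.00 to 6.21 in LKO and 5.03 to 5.50 in KO. It was lower by 0.91 ± 0.16 in LKO (53% of LWT) and by 1.68 ± 0.17 in KO (31.2% of WT), and it was above background on all arrays of every group. Whether the probe lies in the deleted part is not given, so these levels do not measure the remaining function. The known PPARα targets Cd36, Ehhadh, Acot2 and Pdk4 rose with fenofibrate in WT and LWT and none of them passed in LKO or KO. The summed level of 9 hepatocyte markers lay between 12.72 and 13.19 in all 34 livers. Of these markers Cps1 and Trf fell with fenofibrate, by 0.44 and 0.40 in WT and by 0.39 and 0.31 in LWT. Summed Kupffer cell markers (11 genes, including Clec4f and Adgre1) ran from 6.54 to 7.97 outside the KO vehicle group and from 7.16 to 9.07 inside it. For fenofibrate in WT or LWT the red cell, cholangiocyte, stellate, endothelial and platelet lists each gave at most 1 passing gene. The lymphocyte and neutrophil list gave 2 in WT (Nkg7 at 0.62 and Ly6g at −0.43) and 1 in LWT (Nkg7 at 0.67).

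The promoters of 6 genes are shown first: the 3 fibrinogen chains, which lie close together on chromosome 3 and are set against each other below, and 3 subunits of the membrane attack complex, which fell in both lines. Each sequence is the 250 bases before the annotated start, 5′ to 3′ in the direction of the gene, from RefSeq on GRCm38.p6. The C8a window overlaps the annotated gene, which reaches chr4:104876487, so the start used for C8a is not the outermost one. Capitals mark matches, on either strand, to GTTAAT (the core of the HNF1 site), TTGCNNAA (C/EBP) or TTCNNNGAA (STAT).
Fga, chr3:83025903-83026152, plus strand: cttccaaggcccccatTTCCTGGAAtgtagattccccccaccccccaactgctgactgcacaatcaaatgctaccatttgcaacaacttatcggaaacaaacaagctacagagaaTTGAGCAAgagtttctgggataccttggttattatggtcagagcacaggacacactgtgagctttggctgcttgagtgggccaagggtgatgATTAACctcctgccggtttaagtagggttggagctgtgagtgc
Fgb, chr3:83049864-83050113, minus strand: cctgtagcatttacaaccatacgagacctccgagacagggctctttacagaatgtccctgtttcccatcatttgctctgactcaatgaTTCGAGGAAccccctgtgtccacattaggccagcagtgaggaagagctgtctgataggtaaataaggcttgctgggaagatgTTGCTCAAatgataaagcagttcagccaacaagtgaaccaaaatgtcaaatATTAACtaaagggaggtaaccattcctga
Fgg, chr3:83007474-83007723, plus strand: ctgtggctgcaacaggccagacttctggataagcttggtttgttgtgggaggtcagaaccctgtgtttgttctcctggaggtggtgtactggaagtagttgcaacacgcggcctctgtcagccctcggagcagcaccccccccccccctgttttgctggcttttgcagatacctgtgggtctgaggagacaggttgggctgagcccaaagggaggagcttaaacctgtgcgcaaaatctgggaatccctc
C9, chr15:6445096-6445345, plus strand: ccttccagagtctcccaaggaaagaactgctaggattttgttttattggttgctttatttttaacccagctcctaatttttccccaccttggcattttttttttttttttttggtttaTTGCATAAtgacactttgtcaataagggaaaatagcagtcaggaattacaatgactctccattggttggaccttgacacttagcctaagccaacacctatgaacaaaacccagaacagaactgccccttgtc
C8a, chr4:104876399-104876648, minus strand: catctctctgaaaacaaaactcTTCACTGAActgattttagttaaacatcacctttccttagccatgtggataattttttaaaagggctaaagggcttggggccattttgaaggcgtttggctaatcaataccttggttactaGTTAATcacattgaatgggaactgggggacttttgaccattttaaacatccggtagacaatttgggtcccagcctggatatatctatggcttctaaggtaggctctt
C8b, chr4:104766067-104766316, plus strand: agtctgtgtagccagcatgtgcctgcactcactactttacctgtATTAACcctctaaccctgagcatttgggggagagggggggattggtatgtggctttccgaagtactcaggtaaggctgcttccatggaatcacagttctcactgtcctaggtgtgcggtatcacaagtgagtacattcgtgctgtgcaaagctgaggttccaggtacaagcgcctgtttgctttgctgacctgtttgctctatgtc

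Fga and Fgb each held all 3 motifs in the same order, with the HNF1 core 43 and 29 bases, the C/EBP match 135 and 80 bases and the STAT match 234 and 162 bases before the start. Fgg, the gene of the γ chain, held none of these letters in its window. RefSeq promoters were matched for 25 of the 33 genes. GTTAAT was present in 6 of the 25 (24%; C8a, C8b, F13b, Fga, Fgb and Hc) against 6.43% of all 32851 mouse promoters of the same length. TTGCNNAA was present in 8 (32%; Ahsg, C3, C9, F11, F9, Fga, Fgb and Klkb1) against 9.56%, and TTCNNNGAA in 6 (24%; C8a, F9, Fga, Fgb, Masp2 and Pros1) against 7.02%. TGTTTAC, the FOXA motif, was present in 2 (8%; F11 and its neighbour Klkb1) against 3.17%. The type of element that PPARα binds with RXR (AGGTCA repeated with 1 base between) was found in 0 of the 25 and in 0.0335% of all promoters. The HNF4-type CAAAGTCCA was also found in 0, against 0.384%, as was the full HNF1 palindrome (GTTAAT, any base, then ATTAAC), against 0.00913%. A match describes these letters only, and binding was not measured.

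With fenofibrate most of the set fell in WT and LWT livers, and among the roles the terminal pathway of complement had the lowest median change (−0.68 in WT and −0.98 in LWT). In WT, 24 of the 33 genes fell and none rose, where 11.3% of all genes tested fell and 10% rose. In LWT, 19 fell and none rose, where 7.83% of all genes fell and 10% rose. The median change of the 33 genes was −0.37 in WT and −0.31 in LWT, and the median of all genes tested was 0 in both. All 19 genes that fell in LWT were among the 24 that fell in WT, which is 100% of the LWT calls and 79.2% of the WT calls. In 24 genes every WT fenofibrate mouse lay below every WT vehicle mouse, where 14.4% of all genes did so, and in LWT this held for 20 genes, where 7.89% of all genes did so. The 9 genes that passed in neither line were Mbl1, Mbl2, C3, C4b, F9, Pros1, Kng1, Cpb2 and Ahsg.

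**Figure D1:**
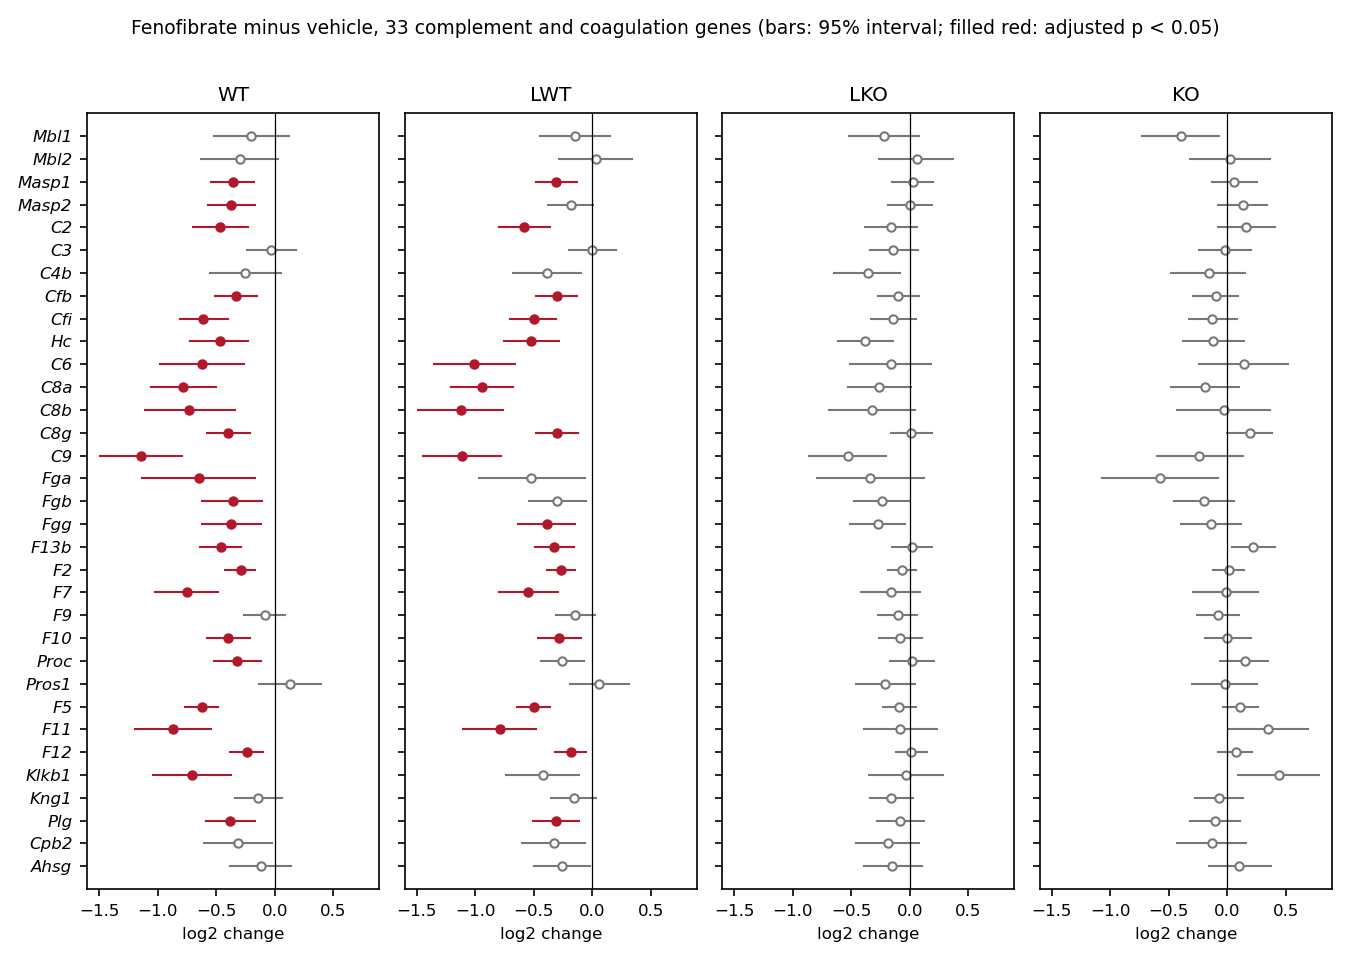
Log2 change with fenofibrate (x axis) for each of the 33 genes (rows, in order of role) in WT, LWT, LKO and KO; points are fitted changes, bars their 95% intervals, and filled red points passed at an adjusted p under 0.05. Red points lie left of 0 in WT (24) and LWT (19), and LKO and KO have none.

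All 6 genes of the terminal pathway fell in both lines. Their products assemble in turn on a target membrane: C5, encoded by Hc in mice, starts the complex, C6 and the 3 chains of C8 extend it and C9 polymerises into the pore. C9 stood at 3.60, 3.07, 3.07 and 3.17 in the WT vehicle mice and at 2.29, 1.60, 2.24 and 2.19 with fenofibrate. In LWT it stood at 3.4, 3.55, 3.35 and 2.88 with vehicle and at 2.18, 1.82, 2.69, 1.99 and 2.21 with fenofibrate. No treated mouse of either line reached the lowest vehicle mouse. C9 fell by 1.14 ± 0.17 (SE, adjusted p = 1.16e-05) to 45.3% of the vehicle level in WT and by 1.11 ± 0.16 (adjusted p = 9.09e-06) to 46.2% in LWT. C8a, the chain of C8 that inserts into the membrane, read 6.39, 6.29, 6.36 and 6.4 in WT on vehicle and 5.66, 5.09, 5.81 and 5.77 on fenofibrate. Its LWT levels were 6.36, 6.59, 6.42 and 6.21 on vehicle and 5.31, 5.36, 5.75, 5.32 and 5.51 on fenofibrate, again with no overlap. C8a fell by 0.78 ± 0.14 (adjusted p = 0.000106) and 0.94 ± 0.13 (adjusted p = 3.73e-06), to 58.2% and 51.9%.

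C8b, the chain of C8 that binds the growing complex, read 6.70, 6.42, 6.19 and 6.63 on vehicle and 5.92, 5.2, 6.11 and 5.80 on fenofibrate in WT. In LWT it read 6.73, 6.96, 6.77 and 6.61 on vehicle and 5.55, 5.41, 6.32, 5.30 and 5.64 on fenofibrate. The groups did not overlap in either line, although LWT fenofibrate mouse 3 stood well above its group. C8b fell by 0.73 ± 0.19 (adjusted p = 0.00521) in WT and by 1.12 ± 0.18 (adjusted p = 2.75e-05) in LWT, and the difference between the lines, 0.40 ± 0.26, did not pass (adjusted p = 0.978). C6, the subunit that joins after C5, read 5.50, 5.14, 5.09 and 5.53 in WT on vehicle and 4.89, 4.00, 5.11 and 4.79 on fenofibrate. The WT groups overlapped through the fenofibrate mouse at 5.11. LWT levels of C6 were 5.56, 5.21, 5.56 and 5.24 on vehicle and 4.31, 4.27, 4.80, 4.40 and 4.14 on fenofibrate, without overlap. C6 fell by 0.62 ± 0.18 (adjusted p = 0.012) and 1.01 ± 0.17 (adjusted p = 6.2e-05). Without WT fenofibrate mouse 2, at 4.00, the WT change was −0.39 and did not pass (adjusted p = 0.0893). Hc fell by 0.47 and 0.52, and C8g, whose product is a lipocalin rather than a pore-forming chain, fell by 0.40 and 0.30.

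**Figure D2:**
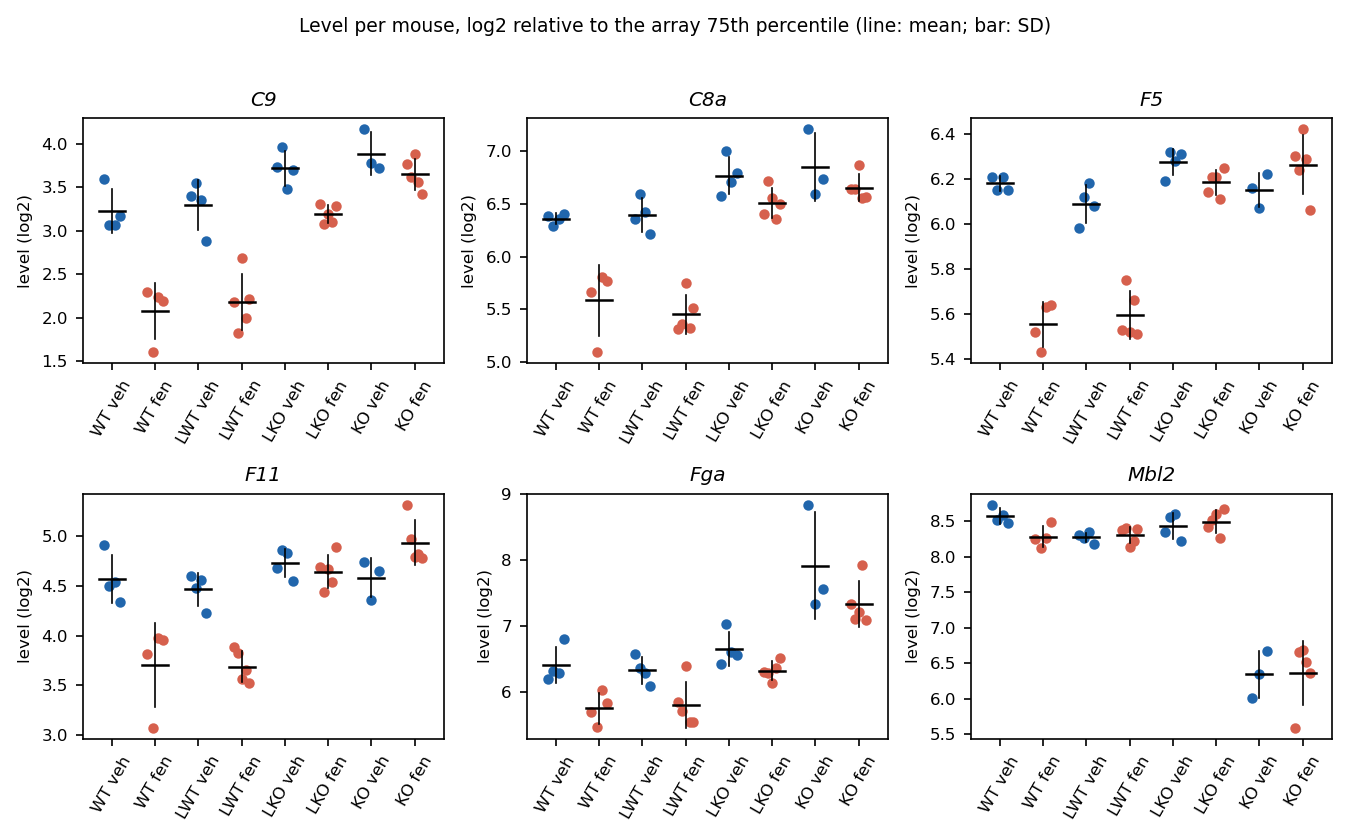
Level of C9, C8a, F5, F11, Fga and Mbl2 in every mouse (y axis, log2 scale, with the array's 75th percentile set to 0) in the 8 groups (x axis; veh, vehicle; fen, fenofibrate); points are mice, horizontal lines group means and vertical bars SD. For C9, C8a, F5 and F11 the fenofibrate mice of WT and LWT lie below their vehicle mice, and for Mbl2 the 8 KO mice lie at 5.59 to 6.68 while all others lie at 8.12 to 8.73.

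Upstream in complement, 3 of the 5 genes of activation and control fell in both lines. Cfi, the protease that cuts C3b and C4b, read 7.91, 7.89, 8.10 and 8.06 in WT on vehicle and 7.36, 7.22, 7.53 and 7.42 on fenofibrate. LWT levels were 7.93, 7.93, 7.87 and 7.78 on vehicle and 7.28, 7.42, 7.33, 7.36 and 7.46 on fenofibrate. Neither line showed overlap, and Cfi fell by 0.61 ± 0.10 (adjusted p = 3.55e-05) and 0.50 ± 0.09 (adjusted p = 0.000227). C2, the catalytic part of the classical and lectin C3 convertase, fell by 0.47 ± 0.12 and 0.58 ± 0.11, and Cfb, its counterpart in the alternative pathway, by 0.33 ± 0.09 and 0.30 ± 0.08. C3, the component on which all pathways converge, changed by −0.03 ± 0.10 in WT (95% interval −0.24 to 0.18) and by 0.00 ± 0.10 in LWT (−0.20 to 0.20). C4b changed by −0.25 (adjusted p = 0.255) and −0.39 (adjusted p = 0.0514), neither of which passed, and its probe also lists an accession of C4a. Among the 4 lectin pathway genes the protease Masp1 fell in WT (by 0.36 ± 0.09) and LWT (by 0.31 ± 0.09), and Masp2, the protease that cuts C4 and C2, fell in WT (by 0.37 ± 0.10) but did not pass in LWT (−0.18 ± 0.09, adjusted p = 0.188). The difference between the lines for Masp2, −0.19 ± 0.14, did not pass (adjusted p = 0.978). The mannose-binding lectins Mbl1 and Mbl2, which recognise microbial sugars, changed by −0.20 and −0.30 in WT and by −0.15 and 0.03 in LWT and did not pass.

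On the coagulation side, F11 and F7 had the largest falls that passed in both lines, and F5 had the smallest adjusted p. F5, the cofactor of factor Xa, read 6.21, 6.15, 6.21 and 6.15 on vehicle and 5.52, 5.43, 5.63 and 5.64 on fenofibrate in WT. LWT read 5.98, 6.12, 6.18 and 6.08 on vehicle and 5.53, 5.75, 5.52, 5.66 and 5.51 on fenofibrate. These narrow, separate groups gave the smallest adjusted p of the 33 genes in both lines: a fall by 0.62 ± 0.07 (adjusted p = 1.65e-07) in WT and by 0.50 ± 0.07 (adjusted p = 2.67e-06) in LWT. F11, the contact factor that activates factor IX, read 4.91, 4.50, 4.54 and 4.34 on vehicle and 3.81, 3.07, 3.98 and 3.95 on fenofibrate in WT. In LWT it read 4.60, 4.48, 4.56 and 4.23 on vehicle and 3.88, 3.82, 3.56, 3.65 and 3.52 on fenofibrate. No F11 groups overlapped, and it fell by 0.87 ± 0.16 (adjusted p = 0.000182) to 54.8% and by 0.79 ± 0.15 (adjusted p = 0.000376) to 58%. Klkb1, plasma prekallikrein, lies 4.63 kb from F11 on chromosome 8 with no gene between them. It read 6.73, 6.52, 6.35 and 6.31 on vehicle and 5.78, 5.42, 5.98 and 5.91 on fenofibrate in WT. LWT read 6.4, 6.24, 6.18 and 6.15 on vehicle and 6.18, 5.95, 5.65, 5.90 and 5.41 on fenofibrate, where the highest treated mouse overlapped the vehicle group. Klkb1 fell by 0.71 ± 0.16 (adjusted p = 0.00197) in WT and changed by −0.42 ± 0.15 in LWT (adjusted p = 0.0568), and the difference between the lines, −0.29 ± 0.22, did not pass (adjusted p = 0.978). F12, which starts the contact pathway, fell by 0.24 ± 0.07 and 0.18 ± 0.07.

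Of the 6 vitamin K dependent genes 4 fell in WT, and 3 of them also in LWT. F7, which starts coagulation together with tissue factor, read 4.53, 4.20, 4.40 and 4.39 on vehicle and 3.61, 3.46, 3.70 and 3.77 on fenofibrate in WT. In LWT it read 4.23, 4.32, 4.21 and 4.24 on vehicle and 3.90, 3.70, 3.69, 3.56 and 3.66 on fenofibrate. F7 fell by 0.75 ± 0.13 (adjusted p = 0.000105) and 0.55 ± 0.12 (adjusted p = 0.00219), with no overlap. F10, the neighbour of F7 at 1.5 kb, fell by 0.40 and 0.28, and F2, prothrombin, by 0.29 ± 0.06 and 0.27 ± 0.06. Proc, the anticoagulant protease protein C, fell by 0.32 ± 0.10 in WT and changed by −0.26 ± 0.09 in LWT (adjusted p = 0.0529). F9 changed by −0.08 and −0.15, and Pros1, the cofactor of protein C, by 0.13 and 0.06; neither gene passed. In fibrinolysis Plg, the precursor of the fibrin-cutting protease plasmin, fell by 0.38 and 0.31, while Cpb2, an inhibitor of clot lysis, changed by −0.31 (adjusted p = 0.117) and −0.33 (adjusted p = 0.0851). Ahsg, the calcification inhibitor fetuin-A, changed by −0.12 and −0.26 and did not pass.

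All 4 genes of fibrin formation fell in WT, with the fibrinogen chains near the threshold. Fga, the α chain, read 6.20, 6.32, 6.29 and 6.81 on vehicle and 5.69, 5.47, 6.03 and 5.83 on fenofibrate in WT, without overlap. LWT read 6.57, 6.36, 6.28 and 6.09 on vehicle and 5.84, 5.71, 6.39, 5.54 and 5.55 on fenofibrate, where mouse 3 at 6.39 lay within the vehicle range. Fga fell by 0.65 ± 0.23 in WT (adjusted p = 0.0465) and changed by −0.52 ± 0.22 in LWT (adjusted p = 0.109). Fgb, the β chain, averaged 9.96 ± 0.14 (SD, n = 4) on vehicle and read 9.54, 9.41, 9.64 and 9.80 on fenofibrate in WT, where the groups met at 9.80 without overlapping before rounding. In LWT it read 9.90, 10.17, 9.93 and 9.90 against 9.68, 9.51, 9.97, 9.70 and 9.53, with fenofibrate mouse 3 inside the vehicle range. Fgb fell by 0.36 ± 0.12 in WT (adjusted p = 0.0348) and changed by −0.30 ± 0.12 in LWT (adjusted p = 0.0825). Fgg, the γ chain, read 9.71, 9.52, 9.65 and 9.90 against 9.29, 9.08, 9.28 and 9.65 in WT, and 9.62, 9.86, 9.82 and 9.70 against 9.35, 9.28, 9.71, 9.32 and 9.15 in LWT. It fell by 0.37 ± 0.12 (adjusted p = 0.0294) and 0.39 ± 0.12 (adjusted p = 0.02), with overlap in both lines. F13b, the carrier subunit of the enzyme that cross-links fibrin, was tighter: 4.95, 4.97, 4.91 and 4.91 against 4.49, 4.43, 4.48 and 4.49 in WT, a fall by 0.46 ± 0.09 (adjusted p = 0.000224), and a fall by 0.33 ± 0.08 in LWT (adjusted p = 0.00546).

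Leaving out each mouse in turn, 19 of the 24 WT calls passed in all 8 fits. The fibrinogen calls were lost in 7 (Fga), 5 (Fgb) and 5 (Fgg) of them, with adjusted p up to 0.155, 0.122 and 0.127, Proc was lost without WT vehicle mouse 4 or fenofibrate mouse 2 (both −0.28), and C6 as given above. In LWT, 14 of the 19 calls passed in all 9 fits, and F10 (lost in 5 fits), F12 (8), Fgg (3), Masp1 (1) and Plg (3) did not, at changes between −0.16 and −0.36. With the 5 array slides as a block, 15 genes fell in WT: C2, Cfb, Hc, C8b, Fga, Fgb, Fgg, Proc, F12 and Plg were then lost, with changes from −0.14 (F12) to −0.49 (C8b), and Mbl2 passed at −0.45 (adjusted p = 0.0445). In LWT the same block lost Masp1, Cfb, Fgg, F10, F12 and Plg, with changes from −0.13 (F12) to −0.27 (Masp1 and Fgg). On the slide that held both WT groups all 24 genes changed in the same direction, and on the 2 slides that held both LWT groups all 19 did. The arrays of a slide are part of those that gave the calls. Such agreement, here and below, is therefore no independent evidence and does not test an effect of slide.

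In the LKO and KO lines no gene of the set passed. In LKO 0 of 33 genes passed, and 0% of all genes did; 4 of the 33 and 923 of all genes had an unadjusted p under 0.05 in limma. In KO 0 of the 33 passed, with 5 of the 33 and 1887 of all genes under 0.05 unadjusted and 2 genes (0.0125%) passing in all. The median change of the set was −0.14 in LKO and −0.02 in KO. The changes in LKO were not spread evenly around 0: 26 of the 33 estimates were negative, and in 6 genes every fenofibrate mouse lay below every vehicle mouse, where 1.13% of all genes did so. C9 in LKO read 3.74, 3.97, 3.48 and 3.70 on vehicle and 3.31, 3.08, 3.19, 3.10 and 3.29 on fenofibrate, so the groups did not overlap. Its change was −0.53 with a 95% interval from −0.86 to −0.20 (adjusted p = 0.568). The other 5 genes without overlap were Hc (−0.38), C4b (−0.36), Fgg (−0.27), Pros1 (−0.21) and C6 (−0.16). In KO, C9 read 4.17, 3.78 and 3.72 on vehicle and 3.77, 3.62, 3.88, 3.56 and 3.42 on fenofibrate, which overlap. F11 was the only gene whose KO groups did not overlap, at 4.74, 4.36 and 4.65 on vehicle and 5.32, 4.97, 4.79, 4.82 and 4.78 on fenofibrate (2.29% of all genes were higher without overlap), a change of 0.35 ± 0.16 (adjusted p = 0.407) opposite in sign to WT. Klkb1 read 6.22, 5.65 and 5.39 against 6.39, 6.51, 6.11, 5.80 and 6.15, a change of 0.44 ± 0.17 (adjusted p = 0.319).

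Whether the effect of fenofibrate differed by genotype was tested directly as an interaction. Against the liver knockout (LWT minus LKO), 5 of the 33 genes had a larger fall in LWT, where 2.95% of all genes had a difference in this direction, and none the reverse, where 3.77% did: C6 (−0.85 ± 0.24, adjusted p = 0.0273), C8a (−0.69 ± 0.18, adjusted p = 0.0204), C8b (−0.80 ± 0.25, adjusted p just under 0.05 before rounding), F5 (−0.41 ± 0.10, adjusted p = 0.00681) and F11 (−0.70 ± 0.21, adjusted p = 0.0429). In LKO none of these genes passed, though each mean was lower on fenofibrate. The LKO means on vehicle and fenofibrate were 6.89 and 6.57 for C8b, 6.77 and 6.51 for C8a, and 5.85 and 5.68 for C6. They were 6.28 and 6.19 for F5 and 4.73 and 4.65 for F11. C6 read 5.84, 5.87, 5.84 and 5.83 on vehicle and 5.82, 5.44, 5.65, 5.68 and 5.83 on fenofibrate, and F11 read 4.68, 4.86, 4.83 and 4.55 against 4.69, 4.44, 4.67, 4.54 and 4.89. F5 in LKO read 6.19, 6.32, 6.28 and 6.31 against 6.14, 6.21, 6.21, 6.11 and 6.25. C8a read 6.58, 7.0, 6.71 and 6.79 against 6.4, 6.72, 6.56, 6.36 and 6.5, and C8b read 6.95, 7.09, 6.66 and 6.86 against 6.59, 6.70, 6.48, 6.43 and 6.64. For C9 the difference of −0.59 ± 0.23 did not pass (adjusted p = 0.131). With detected probes of a gene averaged, F5 (−0.39, adjusted p = 0.0542), C8a (−0.60, adjusted p = 0.0756) and C8b (−0.80, adjusted p = 0.0518) did not pass, which leaves 2 genes. F5 passed in all 18 fits that left out a mouse, while C8a was lost in 1 (without LKO vehicle mouse 1, −0.62), C6 in 3, F11 in 12 and C8b in 17 of them. The count of 5 was 2 without LWT vehicle mouse 1 or 3, LKO vehicle mouse 1 or LKO fenofibrate mouse 5, and 3 without LWT vehicle mouse 2, LWT fenofibrate mouse 4 or 5, LKO vehicle mouse 2 or 4, or LKO fenofibrate mouse 1 or 3.

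Against the whole-body knockout (WT minus KO), 14 genes had a larger fall in WT, where 5.38% of all genes had a difference in this direction, and none the reverse, where 5.63% did. They spanned the cascades: Masp1 (−0.42) and Masp2 (−0.50) of the lectin pathway, C2 (−0.63) and Cfi (−0.48), the terminal genes C8g (−0.59) and C9 (−0.91), F13b (−0.69), the vitamin K dependent F2 (−0.30), F7 (−0.73) and Proc (−0.47), F5 (−0.74 ± 0.10, adjusted p = 1.37e-05), and the contact genes F11 (−1.22 ± 0.23, adjusted p = 0.000528), F12 (−0.31) and Klkb1 (−1.15 ± 0.23, adjusted p = 0.00127). Each of these differences also holds the KO change, which did not pass for any gene and ranged over the 14 from −0.24 (C9) to 0.44 (Klkb1), with F13b at 0.22 and C8g at 0.19. For Klkb1, Proc and C8g, each lower in KO than in WT on vehicle, the KO vehicle mean lay near the WT fenofibrate mean. These means were 5.75 and 5.77 for Klkb1, 8.21 and 8.16 for Proc, and 8.45 and 8.37 for C8g. Of the 14, C2, C8g, C9, F11, F13b, F5 and Klkb1 passed in all 16 fits that left out a mouse. With detected probes of a gene averaged, Masp1 (−0.34, adjusted p = 0.153) and Masp2 (−0.39, adjusted p = 0.0794) did not pass. Without KO vehicle mouse 2 the count was 7, and without WT fenofibrate mouse 2 it was 9. C6, C8a and F10 missed narrowly, with adjusted p = 0.0528, 0.0528 and 0.0514. No gene of the set differed between WT and LWT in its response to fenofibrate: 0% of all genes passed, and 0 of the 33 had an unadjusted p under 0.05 in limma, where 682 of all genes did.

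Group means (± SD, n = 4 and 4 in WT, 3 and 5 in KO) show where the remaining genes of these 14 stood. Masp1 averaged 4.75 ± 0.08 on vehicle and 4.39 ± 0.18 on fenofibrate in WT, against 5.15 ± 0.12 and 5.21 ± 0.15 in KO. Masp2 averaged 6.48 ± 0.11 on vehicle and 6.11 ± 0.07 on fenofibrate in WT, against 6.46 ± 0.37 and 6.59 ± 0.08 in KO. C2 averaged 6.77 ± 0.15 on vehicle and 6.30 ± 0.17 on fenofibrate in WT, against 7.02 ± 0.16 and 7.18 ± 0.09 in KO. In these genes of early complement the WT fenofibrate group had the lowest mean of the 4. Cfi averaged 7.99 ± 0.11 on vehicle and 7.38 ± 0.13 on fenofibrate in WT, against 8.22 ± 0.23 and 8.09 ± 0.16 in KO. C8g averaged 8.77 ± 0.10 on vehicle and 8.37 ± 0.12 on fenofibrate in WT, against 8.45 ± 0.25 and 8.64 ± 0.10 in KO. F13b averaged 4.93 ± 0.03 on vehicle and 4.47 ± 0.03 on fenofibrate in WT, against 4.77 ± 0.27 and 4.99 ± 0.11 in KO. WT on fenofibrate also had the lowest mean for Cfi, C8g and F13b. F2 averaged 8.88 ± 0.03 on vehicle and 8.59 ± 0.04 on fenofibrate in WT, against 8.81 ± 0.14 and 8.82 ± 0.08 in KO. Proc averaged 8.48 ± 0.10 on vehicle and 8.16 ± 0.12 on fenofibrate in WT, against 8.21 ± 0.28 and 8.36 ± 0.09 in KO. F12 averaged 7.84 ± 0.06 on vehicle and 7.60 ± 0.05 on fenofibrate in WT, against 7.86 ± 0.20 and 7.92 ± 0.08 in KO. F2, Proc and F12 were also lowest in WT on fenofibrate.

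Among vehicle mice, 13 of the 33 genes differed between the KO and WT lines, in which the deletion and other differences between the lines cannot be told apart. In KO 9 were higher than in WT and 4 lower, where 14% of all genes were higher and 16.1% lower. Without KO vehicle mouse 1 the counts were 3 higher and 6 lower, and the shares of all genes in that fit are not given here. The largest change was in Mbl2, the mannose-binding lectin C, at 8.73, 8.52, 8.59 and 8.47 in WT and 6.01, 6.34 and 6.67 in KO. It was lower by 2.24 ± 0.17 on the log2 scale (adjusted p = 5.66e-11), at 21.2% of the WT level. The low level was confined to the KO line among the lines measured: LKO mice on vehicle read 8.35, 8.56, 8.60 and 8.22 and LWT mice 8.30, 8.26, 8.34 and 8.18. The difference between the knockout effects (KO minus WT, less LKO minus LWT) was −2.40 for Mbl2 (adjusted p = 2.95e-08). This difference passed for 3 of the 33 genes, 2 below 0 and 1 above, where 4.41% and 3.89% of all genes did. KO mice on fenofibrate stayed low, at 5.59, 6.65, 6.68, 6.51 and 6.36 against 8.25, 8.12, 8.26 and 8.48 in WT. Mbl1, the other mannose-binding lectin, differed by 0.04 ± 0.17 between KO and WT on vehicle, and by −0.28 (adjusted p = 0.134) without KO vehicle mouse 1.

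Fga moved the other way. KO mice on vehicle read 8.84, 7.34 and 7.56 against the WT range of 6.20 to 6.81, which do not overlap, and Fga was higher by 1.51 ± 0.25 (adjusted p = 4.63e-05). A second Fga probe gave 1.06 (adjusted p = 0.00189). LKO mice read 6.43, 7.03, 6.60 and 6.56, a change of 0.33 ± 0.23 from LWT that did not pass, and the 2 knockout effects differed by 1.17 (adjusted p = 0.0314). Fgb was higher in KO by 0.40 ± 0.13 (10.71, 10.16 and 10.20; adjusted p = 0.0242), and Fgg, at 10.33, 9.92 and 9.87, differed by 0.34 ± 0.13 (adjusted p = 0.0532). Klkb1 was lower by 0.73 ± 0.18 (adjusted p = 0.00228), at 60.5% of WT, and its 2 knockout effects differed by −0.92 (adjusted p = 0.0138). Hc, which encodes C5, averaged 8.31 ± 0.14 (SD, n = 4) in WT and 8.94 ± 0.28 (SD, n = 3) in KO. The terminal genes C9 (0.66), Hc (0.62) and C8a (0.49) were higher, as were Pros1 (0.47), C4b (0.44), Masp1 (0.40) and F9 (0.32), and C8g (−0.31) and Proc (−0.27) were lower.

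KO vehicle mouse 1 was the highest KO vehicle mouse for Fga, Fgb, Fgg, C9 (4.17), Hc (9.24), C8a (7.21), C4b (9.32) and F9 (4.91). Without it, 3 genes were higher (Fga by 1.04, adjusted p = 0.000787, Hc and Masp1) and 6 lower (Mbl2, Klkb1, C8g, Proc and, in addition, F13b at −0.32 and Masp2 at −0.23). C9 (0.52, adjusted p = 0.0528), C8a (0.30), C4b (0.23), Fgb (0.22), F9 (0.17) and Pros1 (0.35) no longer passed. Mbl2, Fga, Klkb1, Hc and Masp1 passed in all 7 fits that left out a mouse. C8g was lost without KO vehicle mouse 2 (−0.25) or 3 (−0.23) or WT vehicle mouse 4 (−0.27), Proc in 5 of the 7 fits, and C4b and Fgb also without WT vehicle mouse 2 or 3. The difference of knockout effects for Fga was 0.71 (adjusted p = 0.106) without KO vehicle mouse 1, and that for Klkb1 was −0.74 (adjusted p = 0.0684) without KO vehicle mouse 3. Replicate numbers paired the vehicle mice, in that same-numbered mice deviated together, and with the replicate number as a block 1 gene passed, Mbl2 (−2.27, adjusted p = 0.0103), while Fga stood at 1.64 (adjusted p = 0.0622). On the slide that held KO and WT vehicle mice together, 12 of the 13 changes kept their direction and Proc did not.

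Acute phase genes and markers of other cells moved together with these differences. Of 24 acute phase genes 17 were higher in KO than in WT on vehicle and none lower, among them Lcn2 (by 6.39 ± 0.88), Orm3 (5.17 ± 0.59), Saa2 (4.83 ± 0.95) and Saa1 (4.63 ± 0.93). The median over the 24 was 0.92. Of all genes tested 14% were higher and 16.1% lower in KO. Their summed level was 12.56 to 13.49 in the 3 KO vehicle mice and 11.77 to 12.05 in the 4 WT vehicle mice. Of 11 Kupffer cell markers 6 were higher in KO (Timd4 by 1.32, Adgre1 by 1.13, and C1qb, C1qa, Csf1r and C1qc), with summed levels of 7.16 to 9.07 against 6.89 to 7.42. Adgre1 (1.05 to 4.29 in KO against 0.87 to 1.5 in WT) and Csf1r overlapped, while Timd4, C1qb, C1qa and C1qc did not. Of 9 lymphocyte and neutrophil genes S100a8 (3.62 ± 0.75), S100a9 (3.64 ± 0.82) and Ptprc (0.71) were higher and Ms4a1 (−1.97) and Cd79a (−0.72) lower, at summed levels of 3.87 to 4.91 against 3.80 to 3.97. Ptprc, Ms4a1 and Cd79a overlapped between KO and WT, while S100a8 and S100a9 did not. Of 9 endothelial markers Stab2 (0.78), Vwf (0.57), Stab1 (0.55) and Pecam1 (0.39) were higher and Clec4g (−1.0) and Kdr (−0.38) lower, at summed levels of 6.67 to 6.83 against 6.67 to 6.98. Vwf, Pecam1 and Kdr overlapped between KO and WT, while Stab2, Stab1 and Clec4g did not. The stellate, platelet and cholangiocyte lists held 1, 2 and 1 passing genes: Lrat (−0.88), Pf4 (0.73), Gp9 (−0.88) and Epcam (−1.17). Of the 3 KO vehicle arrays, Epcam was above background on 0, and Gp9 and Ms4a1 on 1 each. The sizes of these falls are therefore uncertain. The part of these shifts in the complement and coagulation differences was not tested.

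Between LKO and LWT on vehicle 1 gene passed, C2, where 1.82% of all genes were higher and 4.29% lower. C2 read 7.35, 7.31, 7.21 and 7.50 in LKO and 6.78, 7.14, 6.71 and 6.66 in LWT, without overlap, and was higher by 0.52 ± 0.12 (adjusted p = 0.00359). It passed in all 8 fits that left out a mouse, was 0.57, 0.55 and 0.60 within the 3 slides that held both groups, and with the replicate number as a block was 0.52 (adjusted p = 0.0836), which leaves 0 genes. The median over the set was 0.15 and 4 of the 33 estimates were below 0. C6 (0.45, adjusted p = 0.154), C9 (0.43, adjusted p = 0.163), C8a (0.37, adjusted p = 0.123) and F7 (0.34, adjusted p = 0.144) were the next largest. Of the 24 acute phase genes Orm3 alone passed here, at 2.26 ± 0.54.

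**Figure D3:**
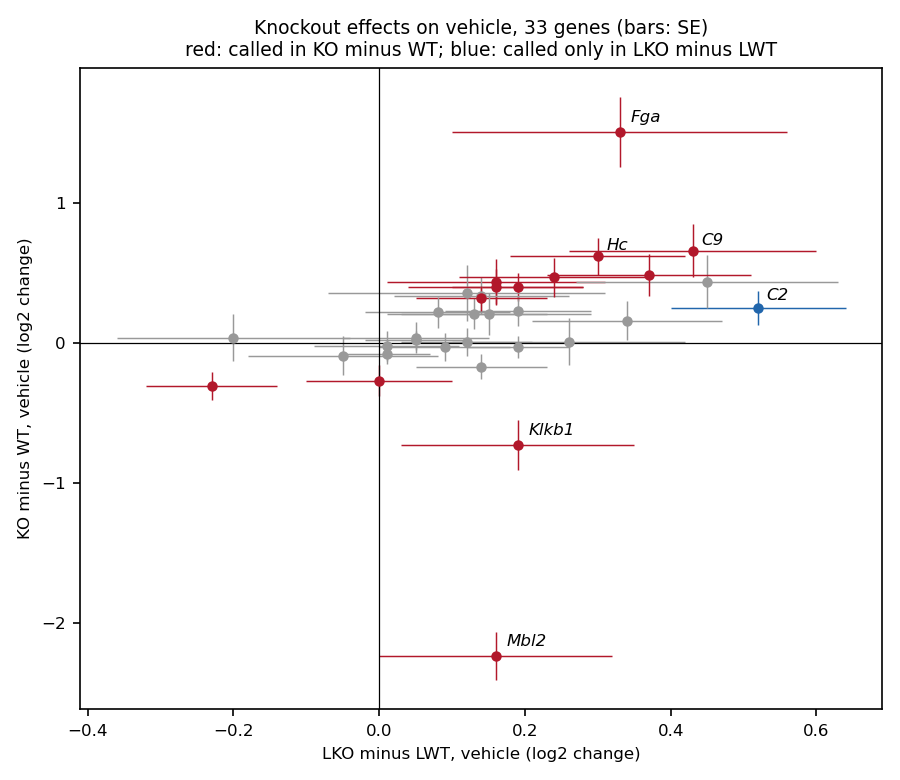
Difference KO minus WT (y axis) against LKO minus LWT (x axis) in vehicle mice, in log2, for the 33 genes; points are fitted differences, bars their SE, red points passed in KO minus WT and the blue point, C2, in LKO minus LWT only. Mbl2 lies at −2.24 and Fga at 1.51 on the y axis, and x values run from −0.23 to 0.52.

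Under fenofibrate the genotypes stood furthest apart. KO exceeded WT in 27 of the 33 genes and was lower in Mbl2 alone, where 21.2% of all genes were higher and 22% lower. LKO exceeded LWT in 19 genes and was lower in none, where 18.3% of all genes were higher and 18.2% lower. These comparisons share their mice with the ones above and are no independent evidence of them. C9 was higher by 1.57 ± 0.16 in KO, at 297% of the WT level, and by 1.02 ± 0.15 in LKO, at 202% of LWT. C6 was higher by 1.2 ± 0.17 and 1.30 ± 0.16, F11 by 1.23 ± 0.15 and 0.96 ± 0.14, and C2 by 0.88 ± 0.11 and 0.94 ± 0.10. Fga was higher by 1.58 ± 0.22 in KO, while its difference in LKO of 0.51 ± 0.21 did not pass (adjusted p = 0.0554). All 19 LKO calls passed in all 10 fits that left out a mouse, and 24 of the 28 KO calls in all 9; Cfb, Cpb2, Klkb1 and Pros1 were lost in 2, 1, 4 and 6 of these, with differences between 0.20 and 0.42. Other lists moved here too. Of the 24 acute phase genes 16 were higher and 1 lower in KO than in WT, and 8 higher and 1 lower in LKO than in LWT. In KO 4 of 6 cholangiocyte markers were lower (Krt7 by −1.75) and 4 of 9 endothelial markers higher (Stab2 by 1.00). There 2 of 3 red cell markers were higher (Hba-a1 by 1.69), and of 9 lymphocyte and neutrophil genes 4 were lower and 2 higher. Krt7 was above background on 2 of the 5 KO fenofibrate arrays. The median of the cholangiocyte list was −1.33 in KO against WT and also −1.14 in LWT against WT, where 0 passed. The part of these lists in the genotype differences was not tested.

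C6 and C9 lie on chromosome 15, as does Ppara, and the lines were therefore compared along it. On the coordinates of the scanner files (mm9) the C6 probe lies at chr15:4748363-4748422 and the C9 probe at chr15:6433127-6433186, 1.68 Mb apart and 80.9 and 79.2 Mb from the Ppara probe. Between the control lines LWT and WT on vehicle, C6 and C9 each differed by 0.07 and did not pass. In that comparison 2 of the 43 genes tested within 5 Mb of C6 or C9 passed (4.65%), against 5.95% of 605 genes on the rest of chromosome 15 and 0.711% of genes elsewhere. With fenofibrate the shares were 2.33%, 6.28% and 0.3%. Between KO and WT the same 3 shares were 23.3%, 32.2% and 30% on vehicle, and 48.8%, 41.3% and 43.2% on fenofibrate. No gene of the set passed between LWT and WT, with vehicle or fenofibrate, where 0.92% and 0.532% of all genes passed and 0 of the 33 had an unadjusted p under 0.05 in limma, against 1975 and 1575 of all genes. The response of the neighbourhood to fenofibrate in WT was near that elsewhere: 7 of the 43 genes fell and 3 rose (23.3%), against 21.8% on the rest of the chromosome. The fallen neighbours included Ranbp3l (by 2.04), Prlr, the prolactin receptor (by 1.54), and Lifr, the receptor of leukaemia inhibitory factor (by 0.95).

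On GRCm38.p6 the 33 genes sit on 13 chromosomes. Cfb and C2 are 0.087 kb apart on chromosome 17, Fgg, Fga and Fgb lie within a cluster on chromosome 3 with gaps of 11.1 and 8.62 kb, C8b and C8a are 11.1 kb apart on chromosome 4, and F7 and F10 1.5 kb apart on chromosome 8. F7 fell by 0.75 and F10 by 0.40 in WT, and F11 by 0.87 and Klkb1 by 0.71. These differences within pairs were not tested.

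Among mice of the same group the fibrinogen chains varied together. The relation was measured on each mouse's deviation from its group mean over the 34 mice, with 100000 permutations within groups and adjustment over 6 relations. Fgb and Fgg deviated together most closely (Pearson r = 0.907, Spearman rho = 0.910, adjusted p = 2e-05 for r; the raw p of 1e-05 is the smallest these permutations give). Fga and Fgb gave r = 0.731 (rho = 0.688, adjusted p = 0.000384) and Fga and Fgg r = 0.725 (rho = 0.673, adjusted p = 0.000384). Without the 2 mice farthest out on the first gene of each pair, r was 0.876, 0.605 and 0.615, and with slide means removed 0.889, 0.743 and 0.723. Fgb also varied with Hp, the acute phase protein haptoglobin (r = 0.817, rho = 0.809, adjusted p = 2e-05; 0.774 without 2 mice and 0.772 with slide means removed). C3 and Hp gave r = 0.830 (rho = 0.836, adjusted p = 2e-05; 0.811 without 2 mice and 0.760 with slide means removed), but r = 0.346 after quantile normalization (permutation p = 0.0735). C6 and C9 gave r = 0.537 (rho = 0.413, adjusted p = 0.0114 for r), which rests on LWT fenofibrate mouse 3 and WT fenofibrate mouse 2: without them r was 0.316 (permutation p = 0.192). With slide means removed it was 0.426 (permutation p = 0.0422).

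**Figure D4:**
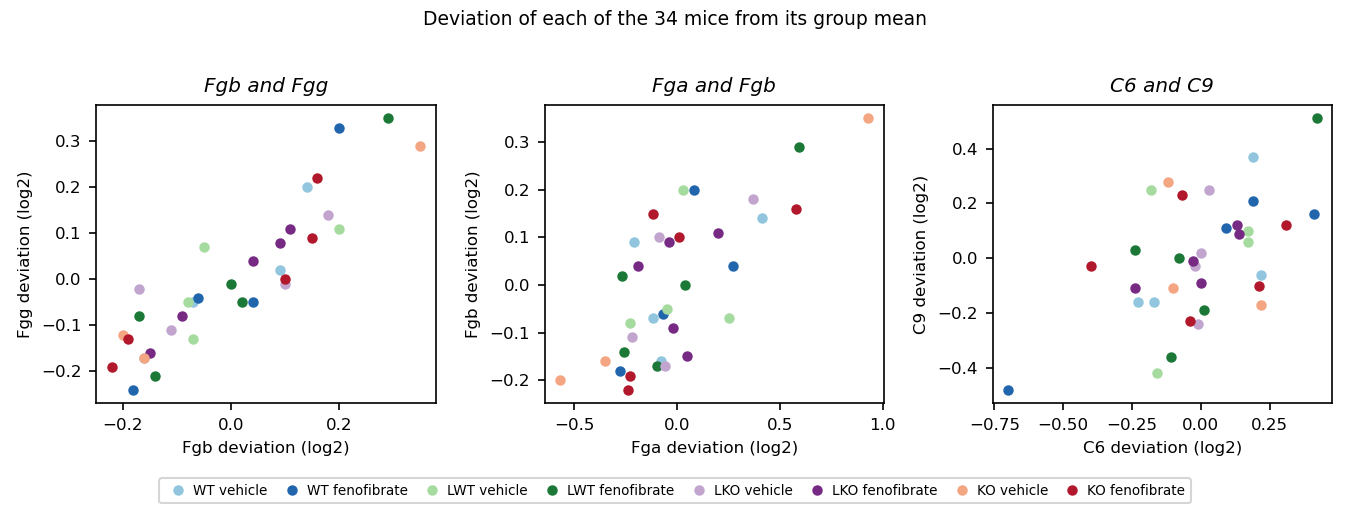
Deviation of each of the 34 mice from its group mean, in log2, for Fgb and Fgg, Fga and Fgb, and C6 and C9 (first gene on the x axis, second on the y axis); points are mice coloured by group. Points follow a line for Fgb and Fgg (r = 0.907) and scatter more for Fga and Fgb (r = 0.731) and C6 and C9 (r = 0.537).

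Further probes exist for 10 of the 33 genes, 12 in all and all above background on the arrays. In WT 11 of the 12 had a negative change, and of the 10 probes for genes that fell, 7 passed over the 31058 probes tested. In LWT 10 were negative and 5 of the 7 for genes that fell passed. Kng1, which encodes the kininogens that release bradykinin, did not pass at its brightest probe but passed at a further probe in both lines. In LWT this was also so for Fga, whose second probe passed (−0.63, adjusted p = 0.0483). The brightest Kng1 probe (mm9 chr16:23081700-23081759) changed by −0.14 in WT and −0.16 in LWT and did not pass. The dimmer probe at chr16:23079732-23079791 averaged 7.09 ± 0.04 (SD, n = 4) on vehicle and 6.54 ± 0.09 (SD, n = 4) on fenofibrate in WT. In LWT it averaged 6.95 ± 0.05 (SD, n = 4) and 6.42 ± 0.12 (SD, n = 5), in LKO 6.95 ± 0.07 (SD, n = 4) and 7.01 ± 0.12 (SD, n = 5), and in KO 6.91 ± 0.25 (SD, n = 3) and 6.93 ± 0.09 (SD, n = 5). At this probe the signal fell by 0.55 ± 0.09 in WT (adjusted p = 2.82e-05) and by 0.53 ± 0.08 in LWT (adjusted p = 2.63e-05), and the differences from LKO (−0.58 ± 0.12, adjusted p = 0.00174) and KO (−0.57 ± 0.12, adjusted p = 0.00331) passed. Which Kng1 transcripts each probe reads was not tested. A further probe of Masp2, which lists another transcript than the brighter ones, changed by −0.01 in WT and 0.01 in LWT.

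The other genes of the 2 cascades, a list of 63 of which 53 were tested, showed fewer and more mixed changes. In WT 15 fell and 3 rose, with a median of −0.19, and in LWT 12 fell and 3 rose, with a median of −0.12. None passed in LKO or KO. Of all genes tested 11.3% fell and 10% rose in WT, and 7.83% fell and 10% rose in LWT. Those that fell in WT included C1s1, a protease of the first component of complement (by 0.82 ± 0.12), and Cfhr2, a relative of the regulator factor H (by 0.61 ± 0.07). In LWT C1s1 fell by 0.70 ± 0.12, and Serpina5, the protein C inhibitor, by 2.28 ± 0.46. Cfd, the factor D protease that is best known from fat tissue, rose by 5.32 ± 0.94 and 2.91 ± 0.89, and Anxa2, a cell-surface receptor of plasminogen, by 1.1 ± 0.15 and 1.13 ± 0.14. On vehicle, 14 were higher and 5 lower in KO than in WT, among them Serpina5 (1.65), Serpina10 (1.12), C1qb (1.07) and Plaur (1.07). Of all genes 14% were higher and 16.1% lower there. Between LKO and LWT 3 were higher (Serpina5 by 1.59 and Fcna by 0.75 among them) and 2 lower (Cfd by −3.12 and F3, tissue factor, by −1.21). Here 1.82% of all genes were higher and 4.29% lower.

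Acute phase genes responded to the drug in both directions. In WT and in LWT alike 6 of the 24 fell and 2 rose. Of all genes tested 11.3% fell and 10% rose in WT, and 7.83% fell and 10% rose in LWT. Il1rn, the interleukin-1 receptor antagonist, rose by 2.63 ± 0.28 and 3.02 ± 0.27, Saa4 fell by 0.92 and 0.96, Steap4 by 0.86 and 1.23, and in WT Orm3 rose by 1.71 ± 0.54. In LWT Itih4, an acute phase protein of the inter-alpha-trypsin inhibitor family, fell by 0.68 ± 0.17. Of 20 transcription factors of the liver, 5 fell in WT and 3 in LWT and none rose. Esr1 fell by 1.1 ± 0.29 and 0.98 ± 0.27, Foxa3 by 1.09 ± 0.14 and 0.88 ± 0.14, and Cebpa by 0.63 ± 0.15 and 0.44 ± 0.14, and none of the 20 passed in LKO or KO. On vehicle 5 of the 20 were lower in KO than in WT (Nr1d1 by −1.88, Foxa1 by −1.23 and Hlf by −1.04 among them) and 1 higher. Of all genes 16.1% were lower and 14% higher in that comparison.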

How the data were processed

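Agilent 1-colour scanner files of 34 arrays were analysed. Per the submitters' processing notes, they were made with Agilent Feature Extraction 10.10.1.1, and limma was used on them. The deposited intensity of a spot is background-subtracted by the scanner software, per the file headers. Spots of a probe were averaged (outlier-flagged spots left out), log2 taken and the array's 75th percentile over non-control probes subtracted. A probe was kept if well above background on all arrays of at least 1 group, and the brightest probe stood for a gene. No spot was saturated (0 of all spots). limma 3.58.1 in R 4.3.3 fitted 8 group means and 14 contrasts; the method was tested on simulated data. The authors' deposited log2 value table served as an alternative, beside other normalizations, filters, slide and replicate blocks and leaving out each mouse. The number of arrays limits the precision.

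The genes and lists were chosen with earlier results of these data known. Values by mouse or group are given for the 8 genes with the largest passing fenofibrate changes, the 6 with the largest passing knockout changes, those that passed an interaction, the fibrinogen chains, C6 and C9. Lists name up to 4 (transcription factors 3) of the largest passing changes per comparison. Kng1 was singled out after its values were seen. The submitters mention 36 samples, while the numbers of mice they list per group, and the arrays, total 34. Same-numbered mice correlated in their deviations in the 3 vehicle comparisons of genotypes only (every r above 0.1: 0.122 to 0.402 for KO and WT, 0.118 to 0.29 for LKO and LWT, 0.103 to 0.239 for LWT and WT), where 1 of 3, 3 of 4 and 3 of 4 pairs shared a slide.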

Additional observations from a re-analysis of the deposited data

Results flagged for a closer look

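In 7 of the 154 groups of 4 or 5 mice examined over 22 genes, 1 mouse stood far from the others, and chance alone flags about 5% of such groups. C9 was 1.60 in WT fenofibrate mouse 2 (next 2.19) and F13b 4.43 in the same mouse (next 4.48). Hc was 8.80 (next 8.44) and Fgb 10.17 (next 9.93) in LWT vehicle mouse 2. Masp2 was 6.32 in WT vehicle mouse 3 (next 6.52), C8a 6.87 in KO fenofibrate mouse 3 (next 6.64) and C8g 8.67 in LKO vehicle mouse 3 (next 8.57).

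The effect of fenofibrate differed between LWT and LKO, by limma's interaction contrast, for C6 (−0.85), C8a (−0.69), C8b (−0.80), F5 (−0.41) and F11 (−0.70). It differed between WT and KO for Masp1 (−0.42), Masp2 (−0.50), C2 (−0.63), Cfi (−0.48), C8g (−0.59), C9 (−0.91), F13b (−0.69), F2 (−0.30), F7 (−0.73), Proc (−0.47), F5 (−0.74), F11 (−1.22), F12 (−0.31) and Klkb1 (−1.15). The effect of the knockout on vehicle differed between KO and LKO for Mbl2 (−2.40), Fga (1.17) and Klkb1 (−0.92). The Fga difference was lost in 8 of the 15 fits that left out a mouse.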

How the results depend on the processing

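No passing value changed sign under the other settings tried, but within slide 1, with 1 KO and 1 WT vehicle array, Proc went the opposite way. With the replicate number as a block, the counts of genes passing were 13 (WT fenofibrate), 8 (LWT fenofibrate), 1 (KO minus WT, vehicle), 0 (LKO minus LWT, vehicle), 8 (LWT minus LKO interaction) and 6 (WT minus KO interaction); in all but the vehicle comparisons of genotypes, mice shared only a number. The slide block gave 15 in WT fenofibrate and 2 in LKO minus LWT on vehicle. Using only the groups compared gave 3 (KO minus WT, vehicle), 3 (LKO minus LWT, vehicle) and 7 (WT minus KO interaction). LKO minus LWT on vehicle gave 5 with quantile normalization, 3 with the authors' table and 2 without slide 1. The LWT minus LKO interaction gave 3 with no filter and 2 with probes averaged, and the difference of knockout effects 5 with quantile normalization. Leaving out each mouse gave 19 to 23 (WT), 14 to 22 (LWT), 0 (LKO, KO), 9 to 13 (KO minus WT, vehicle), 1 (LKO minus LWT, vehicle), 25 to 28 and 19 to 23 (the same with fenofibrate), 0 (LWT minus WT and the WT minus LWT interaction), 2 to 6, 7 to 19 and 2 to 4 (LWT minus LKO, WT minus KO and knockout-effect differences). The relation of C3 and Hp fell to r = 0.346 after quantile normalization, and that of C6 and C9 to 0.316 without 2 mice. The causes of these shifts were not tested. Of 126 passing values of the 33 genes, the strict filter lost 0, the 75th percentile over detected probes 1, quantile normalization 4, normexp 5, averaged probes 6, leaving out slide 1 8, no filter 13, the authors' values 14, the slide block 22, only the groups compared 24 and the replicate block 51.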
